A study of Mus musculus with 10 samples.

Results

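The 7 genes described here encode regulators of the Hippo pathway: the deleted gene *Wwc2*, its paralog *Wwc1*, the angiomotins *Amot*, *Amotl1* and *Amotl2*, and the junctional partners *Ptpn14* and *Frmd6*. They were chosen by gene symbol, and all 7 were found among the 24302 genes of the deposited tables. RNA was taken from whole C57BL/6 mouse embryos at embryonic day 11.5, of which 3 were wild type, 3 were heterozygous (WWC2-/+) and 4 were homozygous (WWC2-/-) for the *Wwc2* deletion. Per the study's methods, the deletion came from floxed *Wwc2* alleles recombined by a Cre driven by the *Zp3* promoter. This promoter is active in growing oocytes. The methods give the cross as a way to remove the maternal as well as the zygotic gene product. Whether embryos that were not homozygous kept the maternal product is not given. The value used is the authors' mean over all 10 embryos of the normalized read count of a gene. No value per embryo or per genotype and no spread between embryos was analysed here, so the levels below are descriptions of the 10 embryos pooled, with no test. Homozygous embryos make up 4 of the 10, and the mean of each gene holds whatever change the deletion brought.

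In the Hippo pathway, a kinase cascade that ends in LATS1 and LATS2 phosphorylates the coactivators YAP and TAZ and keeps them out of the nucleus. WWC proteins carry WW and C2 domains and raise LATS activity. Angiomotins bind actin and junction proteins, and they hold YAP outside the nucleus. PTPN14, a tyrosine phosphatase with a FERM domain, also binds YAP, and FRMD6 is a FERM domain protein of the plasma membrane that acts upstream of the kinases.

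The study's qRT-PCR primers for *Wwc2* show which stretch of the mRNA that assay read, in contrast to the read counts, which cover every exon. The paper reports this assay on pooled wild-type embryos of several stages. The capitals mark the bases that matched the *Wwc2* transcript, here the whole of each oligo.
Wwc2 forward: CCAGGACGCACTCAGGAC
Wwc2 reverse: GCTAGATGAAGACCCTGAGAAGA
The forward primer matched exon 3 of the coding transcript in GENCODE M21 (chromosome 8 of GRCm38, 47900760 to 47900777). The reverse primer matched the opposite strand of exon 4 (47899490 to 47899512). Together they bound a product of 148 bases, from base 676 to base 823 of a transcript of 23 exons, inside the coding sequence that runs from base 356 to base 3916. Neither primer matched a transcript of another gene exactly. None of the 6 genotyping oligos for *Wwc2* matched an annotated *Wwc2* transcript exactly, so none of them was placed in an annotated exon by this search. The oligo WWC2 29 fwd matched a transcript of 1 other gene exactly.

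*Wwc2* (ENSMUSG00000031563, chromosome 8 of GRCm38, 47823959 to 47990924, reverse strand) had a mean normalized count of 2117. *Wwc1* (ENSMUSG00000018849, chromosome 11, 35838400 to 35980527, reverse strand), which encodes the protein also known as KIBRA, had a mean normalized count of 1007. The count of *Wwc2* was thus 2.10 times that of *Wwc1*, but a longer mRNA gives more reads at the same number of molecules, and levels of different genes are compared only per length. Over the union of all annotated exons, *Wwc2* covers 13784 bases and *Wwc1* 4960. The level per kilobase of this exon sequence was 154 for *Wwc2* and 203 for *Wwc1*, a ratio of 0.756. The order of the paralogs rested on the length used. With the longest annotated transcript, 8678 bases for *Wwc2* and 4531 for *Wwc1*, the ratio of the levels per kilobase was 1.10. *Wwc2* has 2 annotated transcripts, 1 of them coding. The coding one is this longest transcript, so the other bases of the *Wwc2* union come only from the non-coding one. With the longest coding sequence, 3561 and 3312 bases, the ratio was 1.96. That ratio divides reads of all exons by the coding length alone. The coding sequence is 25.8% of the exon sequence of *Wwc2* and 66.8% of that of *Wwc1*. The coding transcripts of both genes have 23 exons, and they differ mainly at the 3' end: the last exon holds 4826 bases in *Wwc2*, which is 55.6% of the transcript, and 845 bases or 18.6% in *Wwc1*. Both mRNAs were therefore present in the pooled embryos at levels per kilobase whose order cannot be read from these means. The mean of *Wwc2* also takes in 3 heterozygous and 4 homozygous embryos that carry its deletion. This mean is therefore not a level of the intact gene alone. *Wwc3*, the third gene of the family in other mammals, has been lost in mice.

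**Figure D1:**
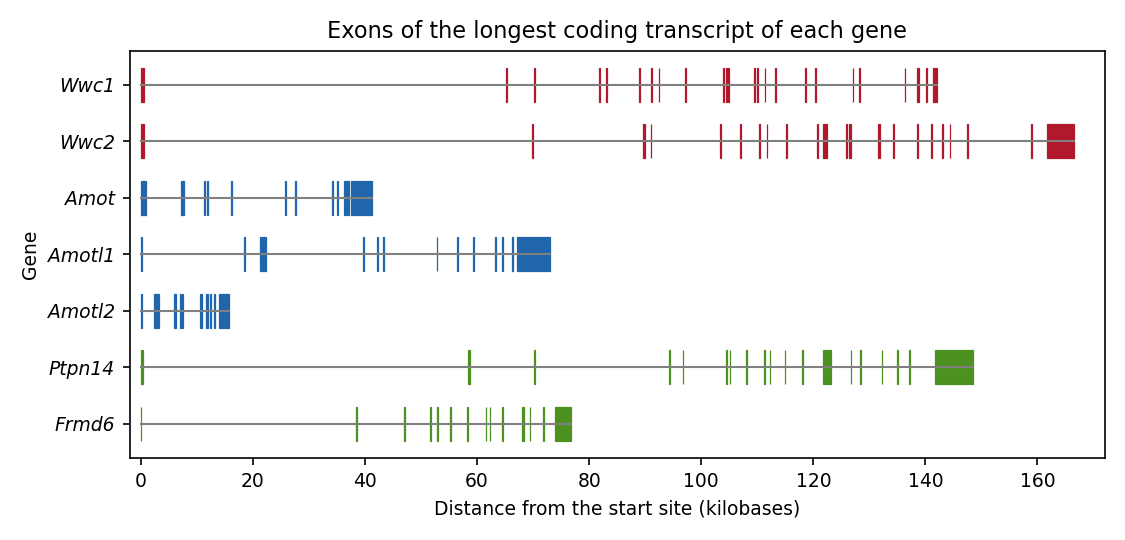
Exons (boxes) and introns (lines) of the longest coding transcript of each gene in GENCODE M21, drawn to scale against the distance from the start site in kilobases. *Wwc1* and *Wwc2* are red, the angiomotins blue, *Ptpn14* and *Frmd6* green; the last exon of *Wwc2* holds 4826 bases and that of *Wwc1* 845.

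The count of *Wwc2* takes in whatever mRNA the deleted allele still makes, and it is a mean over all genotypes, so it does not check the genotype of a library. The gene *Cldn22*, which encodes a claudin, lies on the opposite strand within the exon sequence of *Wwc2* and shares 995 bases with it. Its mean normalized count was 2.45. Per the study's methods, the libraries were made with a directional kit. Whether the counting used the strand of the reads is not given in the sources used here. Reads of these 995 bases therefore cannot be assigned to either gene with certainty.

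The angiomotins had the highest levels of the 7 genes. *Amotl2* (ENSMUSG00000032531, chromosome 9, 102716672 to 102733418, forward strand), a gene known as a target of YAP and TAZ as well as their inhibitor, had a mean normalized count of 5745. *Amot* (ENSMUSG00000041688, chromosome X, 145446425 to 145505181, reverse strand), the founding member of the family, had a count of 5188. *Amotl1* (ENSMUSG00000013076, chromosome 9, 14541966 to 14645056, reverse strand) had a count of 4682. These counts lay close together, but the genes differ in length, with 6289, 8402 and 10064 bases of exon sequence. Per kilobase of exon, *Amotl2* was at 913, *Amot* at 617 and *Amotl1* at 465. *Amotl2* was thus 1.48 times *Amot* and 1.96 times *Amotl1* on this scale. *Amotl2* was the highest of the 7 genes with each of the 3 lengths, whereas *Amot* and *Amotl1* changed places with the length of the coding sequence, where the ratio of *Amot* to *Amotl1* was 0.989. The genes also differ in compactness: *Amotl2* spans 16747 bases with 14 annotated transcripts, of which 9 are coding, and *Amotl1* spans 103091 bases with 6 transcripts, of which 3 are coding. The levels add up the isoforms of a gene, such as the forms of *Amot* with and without the actin-binding N terminus, and these cannot be separated in a count per gene.

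*Ptpn14* (ENSMUSG00000026604, chromosome 1, 189728268 to 189876695, forward strand) had a mean normalized count of 2383 and a level of 178 per kilobase of exon. Its paralog *Ptpn21* had a count of 757 and a level of 95.9, so *Ptpn14* was 1.85 times higher per kilobase of exon. *Ptpn14* stayed above *Ptpn21* with the other lengths, by 1.67 times with the longest transcript and by 3.11 times with the coding sequence. *Frmd6* (ENSMUSG00000048285, chromosome 12, 70825514 to 70902234, forward strand) had a mean normalized count of 1707, below that of *Ptpn14*, but its exon sequence of 6392 bases is shorter than the 13413 bases of *Ptpn14*. Per kilobase of exon *Frmd6* was at 267, and the ratio of *Ptpn14* to *Frmd6* was 0.665, with 0.606 and 0.731 for the other lengths. *Nf2*, which encodes the FERM domain tumor suppressor merlin, had a level of 618 per kilobase of exon, 2.31 times that of *Frmd6*.

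All 7 genes lay above the median of all genes with each of the 3 lengths, although *Wwc1* lay close to it with the coding sequence (percentile 50.1). The median level per kilobase of exon was 75.0 over the 19893 genes that had a mean above 0 and a length. The percentile among these genes was 62.9 for *Wwc2*, 65.9 for *Ptpn14*, 68.7 for *Wwc1* and 74.2 for *Frmd6*. *Amotl1*, *Amot* and *Amotl2* followed with percentiles of 84.5, 88.7 and 93.1. Together the 7 genes took 0.0893% of the summed mean normalized counts of 2.56e+07.

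**Figure D2:**
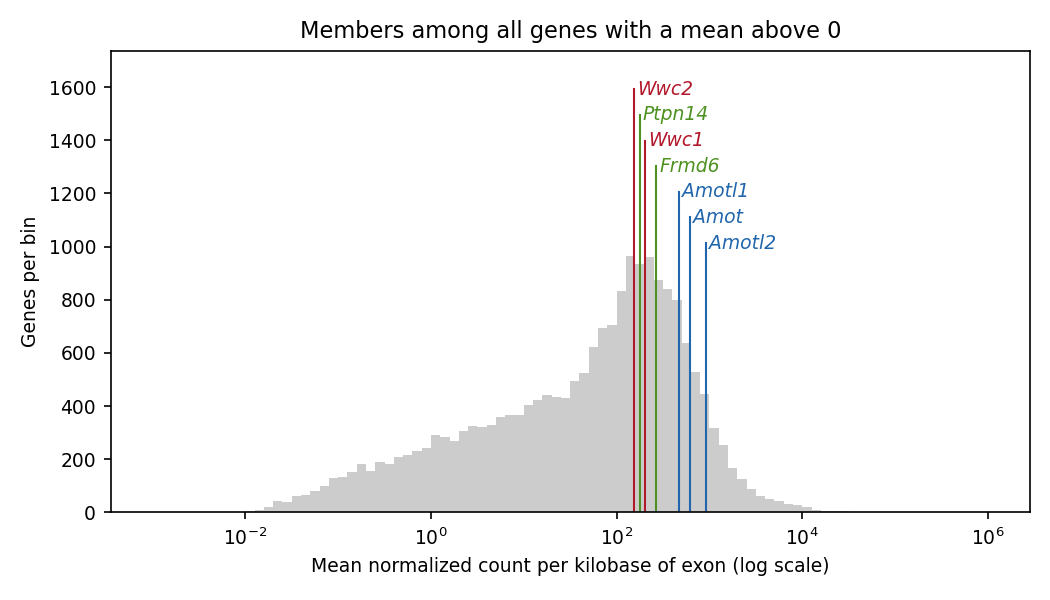
Distribution of the mean normalized count per kilobase of exon (x axis, log scale) over the 19893 genes with a mean above 0 and a length (y axis, genes per bin), with a line for each of the 7 genes. The WWC genes are red, the angiomotins blue, *Ptpn14* and *Frmd6* green; all lie between 154 (*Wwc2*) and 913 (*Amotl2*), to the right of the median of 75.0.

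The order of the 7 genes by level per kilobase of exon was *Wwc2*, *Ptpn14*, *Wwc1*, *Frmd6*, *Amotl1*, *Amot* and *Amotl2*. With each of the 3 lengths, *Wwc1*, *Wwc2* and *Ptpn14* took the 3 lowest places, *Frmd6* the next one and the angiomotins the 3 highest. Within the lowest 3 genes the order differed between the lengths. The spread between embryos is not known here, so it cannot be said which neighbors in the order differ beyond it.

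**Figure D3:**
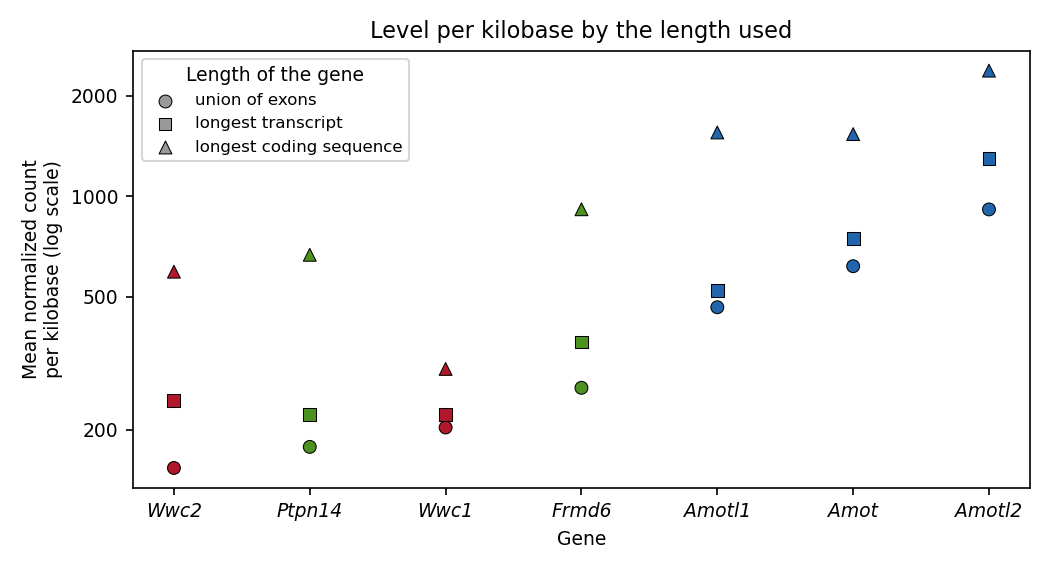
Mean normalized count per kilobase (y axis, log scale) of the 7 genes (x axis), calculated with the union of exons (circles), the longest transcript (squares) and the longest coding sequence (triangles). The angiomotins (blue) lie above the other genes for each symbol, while *Wwc1* is above *Wwc2* for circles and below it for the other symbols.

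The 7 genes were also placed among the other 60 genes of 8 chosen lists of Hippo, junction and angiomotin turnover genes. Their places depend on which genes were listed. Per kilobase of exon, *Amotl2* was higher than 52 of these 60 genes, *Amot* than 46 and *Amotl1* than 42. *Frmd6* was above 32, *Wwc1* above 24, *Ptpn14* above 20 and *Wwc2* above 18 of them. With the longest transcript and the coding sequence, *Amotl2* was above 54 and 52 of them. *Wwc1* was above 19 and 15, and *Wwc2* above 20 and 23, in the same order of lengths. *Amotl2* thus stood in the upper part and the WWC genes in the lower part with all 3 lengths. The place of *Wwc2* rests on a pooled mean that includes embryos carrying its deletion. It is not the place of the gene in wild-type embryos alone. The 10 Hippo kinases and adaptors had a median of 237 per kilobase of exon, from 37.1 for *Mob1b*, an activator of LATS kinases, to 394 for *Taok2*, a kinase upstream of the cascade. Per kilobase of exon, all 3 angiomotins lay above the highest of these 10 genes. With the longest transcript *Amotl1* was above 8 of the 10, and with the coding sequence *Amot* and *Amotl1* were each above 8, while *Amotl2* was above all 10 with each length. Both WWC genes and *Ptpn14* lay below the median of the 10 with each of the 3 lengths.

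Angiomotins and PTPN14 bind YAP and TAZ. Per kilobase of exon, the level of *Yap1* was 738 and that of the TAZ gene *Wwtr1* was 604. *Amotl2* was 1.24 times *Yap1* on this scale, but with the coding sequence the ratio was 0.510, so the order of these genes depended on the length. *Yap1* was 4.80 times *Wwc2* per kilobase of exon and 7.85 times with the coding sequence. These ratios use the pooled mean of *Wwc2*, which includes embryos carrying its deletion. In the list of YAP, TAZ, TEAD factors and *Vgll4*, the 7 genes lay between 87.1 for *Tead4* and 1803 for *Tead2*, both DNA-binding partners of YAP, with a median of 347.

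Among the junction genes, levels varied widely. The 15 genes of the tight junction and Crumbs complex had a median of 138 per kilobase of exon. The lowest was *Crb1*, a Crumbs protein known from photoreceptors, with 4.70, and the highest *Lin7c*, a PDZ protein of the complex, with 751. *Patj*, a scaffold that binds angiomotins, is listed in the table under its older symbol *Inadl* and had 73.5, while *Tjp1*, which encodes ZO-1, had 625. The 12 genes of the Par and Scribble complexes ranged from 41.7 for *Pard3b*, a paralog of the polarity scaffold *Pard3*, to 1225 for *Llgl1*, a cortical polarity protein, with a median of 278. The 7 adherens junction genes had the highest median of the 8 lists, 936, and ranged from 203 for *Ctnna2*, the neuronal alpha-catenin, to 7693 for *Ctnnb1*, which encodes beta-catenin.

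Angiomotin proteins are turned over by ubiquitin ligases and tankyrases, and genes of this machinery were also measured. The 7 genes of this list had a median of 342 per kilobase of exon. *Nedd4*, a ligase that ubiquitinates angiomotins, had the highest level with 5895, and its paralog *Nedd4l* the lowest with 88.3. These values describe mRNA, and nothing was measured here on the amount of protein made from any of the 7 members *Wwc1*, *Wwc2*, *Amot*, *Amotl1*, *Amotl2*, *Ptpn14* and *Frmd6*.

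**Figure D4:**
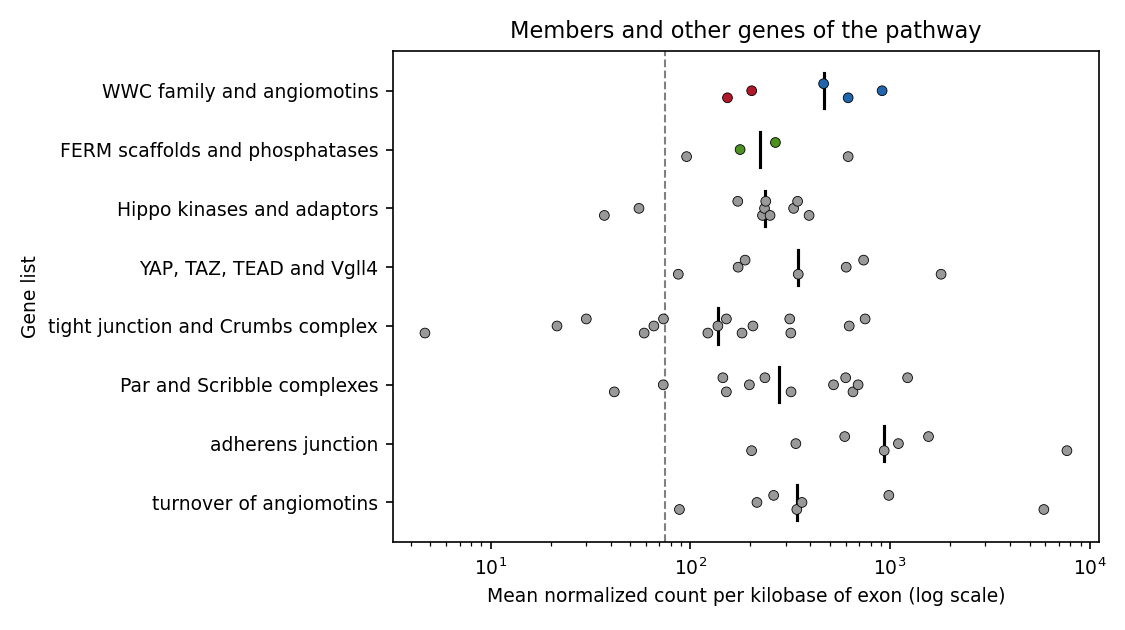
Mean normalized count per kilobase of exon (x axis, log scale) of the genes of 8 lists (y axis), with the WWC genes in red, the angiomotins in blue, *Ptpn14* and *Frmd6* in green and other genes in gray. Black bars mark the median of a list and the dashed line the median of all genes, 75.0; the angiomotins lie to the right of all 10 Hippo kinases and adaptors with this length, and *Amotl2* alone with each of the 3 lengths used.

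Markers of many embryonic cell types were measured in the pooled RNA. Embryonic globins were abundant, with a mean normalized count of 136056 for *Hbb-y*. *Hba-a1* is listed at 0, but it has a near-identical copy, *Hba-a2*, and reads that match both may have been discarded in counting, so this value says nothing about its expression. Markers of neural tissue, mesenchyme, heart, endothelium and epithelium were all measured above 0, as were 20665 of all 24302 genes. The 3 trophoblast markers had mean normalized counts of 6932 for *Tpbpa*, 324 for *Prl3d1* and 70.0 for *Ascl2*. Per kilobase of exon, *Tpbpa* with 3250 and *Prl3d1* with 371 lay above the median of all genes, and *Ascl2* with 43.1 lay below it. The paper lists *Tpbpa* among the genes most upregulated in homozygous embryos. Its pooled mean does not give the level in any single genotype. In RNA of whole embryos, fewer cells that express a gene and less RNA of it per cell cannot be told apart.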

How the data were processed

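Per the labels and the study's methods, the authors prepared poly(A) libraries from whole embryos, used Trimmomatic 0.33 for trimming, HISAT2 for alignment to mm10, HTSeq for the counts per gene and DESeq2 for normalization and tests. The deposited signal used here is the column of mean normalized counts over all 10 embryos, 1 value per gene. It is the same in both tables within 3.34e-05, so it covers all 3 genotypes. The other columns hold fold changes, standard errors, test statistics and p-values of the authors' 2 comparisons and were not used. The number of reads per library is unknown, and no error or interval can be given.

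Gene lengths came from GENCODE M21 of GRCm38, the same assembly as mm10. The annotation used for counting is not given in the sources used here. Of 24302 genes, 22770 matched by Ensembl identifier and 584 by symbol. The mean was divided by the union of all annotated exons in kilobases (Python 3.11.15, pandas 2.3.3), and percentiles were taken among genes with a mean above 0. The length and percentile functions were tested on simulated data. Alternatives were the longest transcript, the longest coding sequence, a minimum mean of 10 and the other table. The count was not limited to coding bases, so division by the coding sequence raises genes with a small coding share most. All 7 genes were named, with *Ptpn21* and, of each other list, the highest and the lowest gene per kilobase. *Yap1*, *Wwtr1*, *Patj*, *Tjp1*, *Cldn22*, *Hbb-y*, *Hba-a1*, *Tpbpa*, *Prl3d1* and *Ascl2* were named outside this rule, after their values were seen. Genes and lists were chosen with earlier results of these data known. Primers were located by exact match to the annotated transcripts.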

Additional observations from a re-analysis of the deposited data

How the results depend on the processing

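The order of the 7 genes was compared between lengths over all 21 pairs. With the longest transcript, 19 pairs kept their order, and with the longest coding sequence 18. The level per kilobase of *Wwc2* was 154, 244 and 595 with the union of exons, the longest transcript and the longest coding sequence. That of *Wwc1* was 203, 222 and 304, that of *Ptpn14* 178, 222 and 668, and that of *Frmd6* 267, 366 and 915. For *Amot* the values were 617, 746 and 1536, for *Amotl1* 465, 523 and 1553, and for *Amotl2* 913, 1298 and 2379. Among the 15909 genes with a mean of at least 10, the percentiles per kilobase of exon fell to between 52.0 for *Wwc2* and 91.1 for *Amotl2*, since fewer low genes were ranked. The mean from the other table was the same for all 7 genes to 3 significant digits. The number of other listed genes below each of the 7, recomputed with both other lengths after the data were seen, lay between 15 for *Wwc1* and 54 for *Amotl2*. The mean of a gene was the same with each length, so the changes in order between lengths come from the lengths themselves. Which length best matches the mRNA in the embryos was not tested, and the spread between embryos is unknown. No paired analysis was possible because the values are means over all embryos, and for the same reason no embryo could be left out.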
